A study of Homo sapiens with 6 samples.

Results

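The kinesins are motor proteins that use ATP to move along microtubules or to take microtubules apart. Those that build and operate the spindle are made mainly in dividing cells, where they separate the poles, move and align chromosomes and complete cytokinesis. Those of transport carry vesicles, mitochondria and messenger RNA through the cytoplasm of most cells, and a few work in the cilium or in Hedgehog signalling. The genes described here are the protein-coding rows named KIF with a number and up to 2 further characters, or KIFC1 to KIFC3. The rule found 41 genes among the 35856 of the deposited table, and they were sorted by known role into 15 mitotic kinesins, 17 transport kinesins and 9 kinesins of the cilium, of signalling or of less defined function. After edgeR's filter on low counts 36 of the 41 were tested, 14 mitotic, 16 transport and 6 of the others. KIF2B, KIF1A, KIF6, KIF25 and KIF26A were not tested and are given by their counts.

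RNA was sequenced from 6 libraries of HCCLM3, an established human hepatocellular carcinoma line that the labels call hepatoma cells. In 3 libraries, named NC in the labels and Empty here, the cells carried an empty vector. In the other 3, named LINC00862, they carried a vector with LINC00862, a long noncoding RNA that the study overexpressed from the pcDNA3.1 backbone. No source used here says whether the 3 libraries of a group came from separate cultures, or whether the cells were a transient transfection, a pool or a clone, so the p-values measure the spread between these libraries, which may be technical.

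The total counts ran from 58241123 to 68229070. LINC00862 itself had 11, 21 and 6 counts in Empty against 145, 121 and 76 in LINC00862, a rise of 3.22 on the log2 scale (SE 0.53, adjusted p = 0.000583). Its level stayed low, at 0.0425, 0.0884 and 0.0214 FPKM in Empty and 0.530, 0.506 and 0.312 FPKM in LINC00862. The groups stood far apart. Spearman's rho of FPKM across genes was 0.896 to 0.909 within a group and 0.754 to 0.767 between groups, and the 10 most abundant genes took 8.42% to 11.7% of the counts in Empty and 19.4% to 29.2% in LINC00862. The labelled cell type was checked against marker lists. Of the 9 hepatocyte and hepatoma markers tested, 7 rose and 2 fell. The list of 10, with the untested APOA1, summed to 3.05 to 3.60 FPKM in Empty and 539.0 to 618.8 FPKM in LINC00862, and fibrinogen beta (FGB) alone was at 1.88, 1.69 and 1.68 and then 598, 529 and 525 FPKM. In the Empty libraries TTR was listed at 0, ALB was at 0 in 2 of 3, and in the LINC00862 libraries AFP was at 0. The epithelial list ran from 193.6 to 287.3 in Empty and from 437.0 to 500.2 in LINC00862 with 4 of 5 genes higher, and EPCAM went from 0.530, 0.636 and 0.475 to 170, 148 and 162 FPKM. Of the 6 stromal markers 3 fell and COL1A1 rose, and their sum was 528.3 to 619.6 in Empty and 13.6 to 18.1 in LINC00862, with vimentin (VIM) at 481, 571 and 564 and then 3.66, 3.81 and 3.85 FPKM. The endothelial list summed to 1.17 to 1.74 in Empty and to 4.44 to 5.89 in LINC00862, with CDH5 higher and the other 3 genes not called. The immune list summed to 2.82 to 3.60 and to 9.08 to 15.1, with CD68 and CD14 higher and the other 3 not called. Over all tested genes 64.2% were called. The labels give all 6 libraries as HCCLM3, and whether both groups are the same line was not tested. Each value below is therefore a difference between these 2 sets of libraries, and the part that the marker shifts have in it was not tested.

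Proliferating cells switch on many mitotic genes together in late S and G2 phase. Their promoters often hold a CCAAT box, bound by NF-Y, and a cell cycle genes homology region (CHR), bound by MuvB complexes such as DREAM or MuvB with B-MYB and FOXM1. The letters TTTGAA (CHR), CCAAT and GGCGGGA (an E2F-like site) were searched on both strands of the RefSeq promoters of GRCh38.p14, from 250 bases before to 50 bases after each start site. The table held 34 of the 41 kinesins. A CHR was in the promoter of 10 of 15 mitotic genes (66.7%), 1 of 12 transport genes and 0 of 7 others, against 18.2% of all 27305 genes in the table. The CCAAT box was in 11 of 15 mitotic genes (73.3%), 4 of 12 transport genes and 3 of 7 others, against 39.7% of all genes. Both occurred together in 9 of 15 mitotic genes (60.0%), in 1 of 12 transport genes and in 7.26% of all genes. For the E2F-like letters the shares were 26.7% of mitotic genes and 18.0% of all genes. In KIF4A, KIF4B and KIF23 all 3 were present, as in 0.498% of all genes.

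The 150 bases before the start site are shown for the 4 mitotic kinesins that fell most, and for KIF5B, which was the most abundant kinesin of the LINC00862 libraries and the only transport kinesin of the table with a CHR. Letters are 5′ to 3′ on the strand of the gene, capitals mark the CHR, the CCAAT box and the E2F-like letters, which did not overlap in these windows, and TTCAAA and ATTGG are the CHR and the CCAAT box read on the other strand.
KIF20A, chr5:138178962-138179111, plus strand: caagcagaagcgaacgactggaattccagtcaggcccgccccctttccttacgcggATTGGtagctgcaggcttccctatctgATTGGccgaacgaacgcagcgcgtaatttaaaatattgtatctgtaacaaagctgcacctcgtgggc
KIF11, chr10:92592980-92593129, plus strand: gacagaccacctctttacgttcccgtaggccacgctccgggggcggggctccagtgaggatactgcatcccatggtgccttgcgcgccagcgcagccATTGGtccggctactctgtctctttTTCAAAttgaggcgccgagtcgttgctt
KIF23, chr15:69414199-69414348, plus strand: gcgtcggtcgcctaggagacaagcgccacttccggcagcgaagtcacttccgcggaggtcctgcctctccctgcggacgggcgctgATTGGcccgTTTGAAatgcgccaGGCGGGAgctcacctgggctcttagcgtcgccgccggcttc
KIF4A, chrX:70289954-70290103, plus strand: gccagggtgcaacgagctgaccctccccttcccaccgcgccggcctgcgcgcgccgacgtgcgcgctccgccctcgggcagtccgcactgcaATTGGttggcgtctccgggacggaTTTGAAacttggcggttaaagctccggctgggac
KIF5B, chr10:32056426-32056575, minus strand: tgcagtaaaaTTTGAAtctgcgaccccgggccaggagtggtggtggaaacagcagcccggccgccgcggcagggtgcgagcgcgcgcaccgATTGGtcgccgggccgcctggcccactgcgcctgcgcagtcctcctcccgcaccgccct
With -1 as the base before the start site and 1 as the start site, the CHR began at -28 in KIF11, -55 in KIF23 and -34 in KIF4A, and at -140 in KIF5B. The E2F-like letters of KIF4A began at 6, after the start site, and so lie outside the stretch shown. In the other mitotic kinesins that had a CHR it began at -35 in KIF15, -10 in KIF18A, 2 in KIF14, 3 in KIF18B, 4 in KIF4B and 5 in KIFC1, and KIF20B had a pair at 25 and 31. KIF20A, the mitotic kinesin with the largest fall, had 2 CCAAT boxes, at -94 and -67, and no TTTGAA. The promoters of KIF2A, KIF2B and KIF2C held none of the 3 motifs in this window, and KIF2A and KIF2C fell. The start sites are those of RefSeq. The files let KIF20A and KIF23 begin further upstream, so the windows shown for these 2 lie wholly or partly inside the genes as the files annotate them. A match of letters is a description and not a measured binding site.

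The comparison asked how the kinesins differed between LINC00862 and Empty, and whether the mitotic and transport genes moved alike. Changes below are log2 fold changes from edgeR's quasi-likelihood test, with the standard error (SE) and the Benjamini-Hochberg adjusted p. At a false discovery rate of 0.05, 24 of the 36 tested kinesins were lower and 6 were higher in LINC00862, and 6 were not called. Over all 20741 tested genes 64.2% were called, 29.8% lower and 34.4% higher, and their log2 fold changes had a median of 0.11. Of the 14 tested mitotic kinesins 13 were lower and 0 were higher by edgeR, with the 14th, KIF4B, not called, and their median log2 fold change was -1.95. At an unadjusted p under 0.05, and under DESeq2 and both limma-trend fits, again 0 were higher. Of the 16 tested transport kinesins 9 were lower, 5 were higher and 2 were not called, with a median of -0.87. Of the 6 others 2 were lower, 1 was higher and 3 were not called, with a median of 0.07. In 13 of 14 mitotic kinesins the LINC00862 libraries lay below all Empty libraries in FPKM, as did 36.6% of all tested genes. A fall of at least 4-fold was called in 7 of 14 mitotic kinesins, against 10.5% of all tested genes, and in 5 of 16 transport kinesins. Tested against a fold change of 2 instead of no change, 13 mitotic and 5 transport kinesins were lower, against 15.4% of all tested genes, and 0 mitotic and 2 transport kinesins were higher, against 23.2%. KIF12, 1 of the 6 kinesins called higher and the only one among the 6 others, was at 0 in Empty and passed the filter on low counts only through the LINC00862 libraries, so it had to differ.

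**Figure D1:**
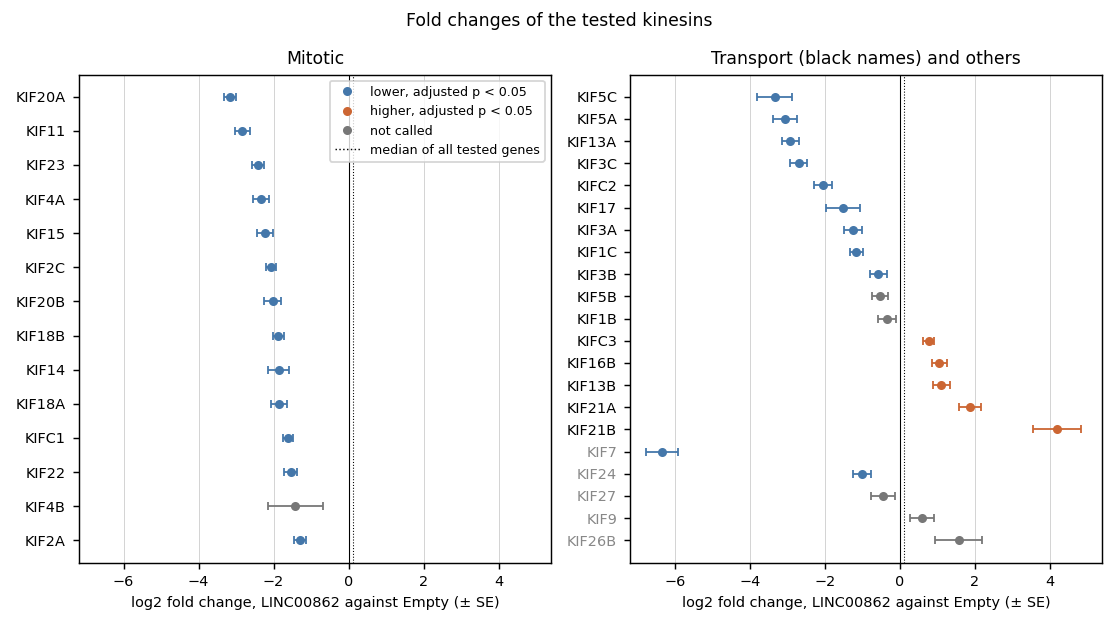
The log2 fold change (x axis) of the tested kinesins, LINC00862 against Empty, fitted by edgeR from 3 libraries a group, with bars of 1 SE. Blue marks lower, orange higher and grey not called, the dotted line is the median of all tested genes at 0.11, and KIF12 is left out because it was at 0 in Empty. All 14 mitotic points lie left of 0, from -3.17 to -1.29, while the transport points run from -3.33 to 4.19.

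The levels per transcript length shifted with these calls. FPKM, fragments per kilobase of transcript scaled to the mapped fragments of the library, was summed over the 15 mitotic kinesins to 312.8, 262.8 and 249.0 in Empty and to 57.2, 59.9 and 50.7 in LINC00862. The 17 transport kinesins summed to 139.9, 104.2 and 99.3 in Empty and to 66.8, 77.7 and 59.8 in LINC00862. Both sums were lower in each LINC00862 library than in each Empty library. The mitotic genes made up 69.5% ± 1.32 (SD, n = 3) of the summed kinesin FPKM in Empty and 44.3% ± 1.40 (SD, n = 3) in LINC00862, so the transport genes held the larger part in the LINC00862 libraries. KIF5B alone made up 8.89% ± 2.12 of the sum in Empty and 17.3% ± 0.770 in LINC00862, and without KIF5B the mitotic share was 76.3% and 53.7%. In Empty 8 mitotic kinesins had a mean of at least 10 FPKM, in LINC00862 0 had, yet 13 of 15 stayed at 1 FPKM or more. In bulk libraries fewer dividing cells and less RNA per cell cannot be told apart.

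**Figure D2:**
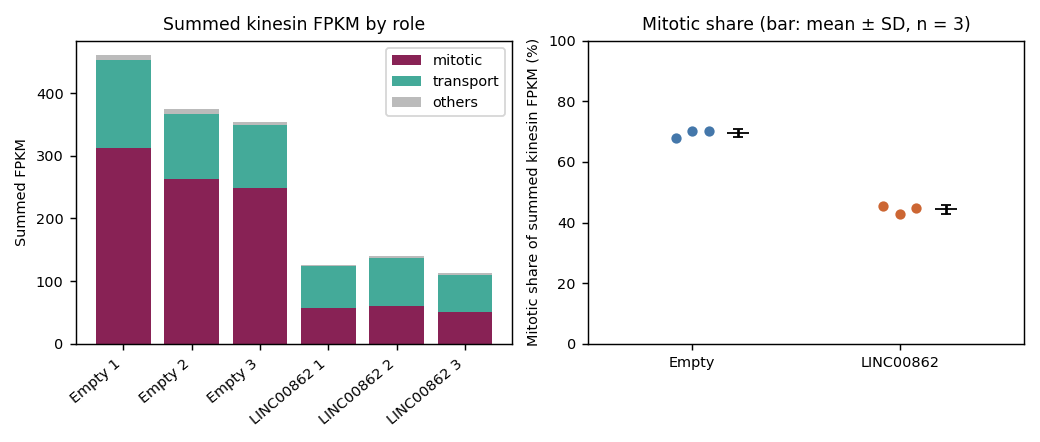
Left, the summed FPKM (y axis) of the mitotic, transport and other kinesins in each of the 6 libraries, stacked. Right, the mitotic share of that sum (y axis, percent) for each library with the mean and SD (n = 3), which is 69.5% in Empty and 44.3% in LINC00862 without overlap.

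Spindle assembly needs plus-end-directed sliding motors that push the poles apart and a minus-end-directed motor that counters them. KIF11 (Eg5, ENSG00000138160), the tetrameric motor that makes the spindle bipolar, had 32.1, 20.4 and 18.6 FPKM in Empty and 3.14, 3.16 and 2.48 FPKM in LINC00862. Its log2 fold change was -2.83 (SE 0.20, adjusted p = 3.12e-06), and the lowest Empty library stood well above the highest LINC00862 library. KIF15, which shares this task with KIF11, changed by -2.23 (SE 0.20, adjusted p = 1.6e-05), with 8.71, 6.46 and 4.87 FPKM in Empty and 1.42, 1.22 and 1.12 FPKM in LINC00862. KIFC1 (HSET), the minus-end motor that bundles poles and supernumerary centrosomes, was at 35.1, 31.8 and 36.3 FPKM in Empty and 10.7, 10.8 and 8.41 FPKM in LINC00862, a log2 fold change of -1.62 (SE 0.14, adjusted p = 1.26e-05). Of the 3, KIFC1 had the smallest fall, and it had the highest mean of the mitotic kinesins in LINC00862, within the spread of KIF22.

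Midzone and cytokinesis motors included the largest fall on the mitotic list. KIF20A (MKLP2, ENSG00000112984), which carries the chromosomal passenger complex to the midzone, had 56.2, 43.9 and 40.3 FPKM in Empty and 4.50, 4.40 and 4.75 FPKM in LINC00862. It was the most abundant kinesin in Empty and its log2 fold change was -3.17 (SE 0.16, adjusted p = 4.68e-07). KIF23 (MKLP1), which forms centralspindlin with RACGAP1, had 37.0, 32.5 and 25.2 FPKM in Empty and 5.29, 5.23 and 5.08 FPKM in LINC00862, a log2 fold change of -2.42 (SE 0.16, adjusted p = 2.02e-06). RACGAP1 fell less, by 1.32 on the log2 scale, and the ratio of KIF23 to RACGAP1 FPKM was 1.07, 1.14 and 1.10 in Empty against 0.499, 0.402 and 0.710 in LINC00862. KIF4A, a chromokinesin that with PRC1 sets the length of the midzone, had 21.9, 14.8 and 17.4 FPKM in Empty and 3.27, 4.09 and 2.14 FPKM in LINC00862, a log2 fold change of -2.34 (SE 0.22, adjusted p = 1.91e-05). KIF14, a partner of PRC1 and citron kinase in abscission, changed by -1.87 (SE 0.28, adjusted p = 0.000314), and KIF20B (MPP1), which acts late in cytokinesis, by -2.03 (SE 0.22, adjusted p = 4.57e-05). KIF20A lost more than its relative KIF20B, and the ratio of their FPKM was 4.20, 4.76 and 5.83 in Empty against 2.10, 2.29 and 2.12 in LINC00862. KIF20A overlaps CDC23 by 74 bases on the opposite strand, and KIF4A overlaps PDZD11 by 411 bases.

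KIF4B, a retrogene on chromosome 5 similar in sequence to KIF4A, had 72, 16 and 23 counts in Empty and 24, 11 and 4 in LINC00862. Its log2 fold change of -1.42 (SE 0.74, adjusted p = 0.124) was not called. The annotated transcripts of the 2 genes were 94.8% identical over their alignment, while only 0.047% of the windows of 150 bases in KIF4B occurred unchanged in KIF4A. KIF4B held 0.362% to 2.10% as many counts as KIF4A in the 6 libraries, and whether any of its reads came from KIF4A was not tested. Without Empty replicate 1 its log2 fold change was -0.60, and without LINC00862 replicate 1 it was -2.08.

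The motors that move chromosomes and trim microtubule ends were lower as well. KIF22 (Kid), a chromokinesin that pushes chromosome arms toward the equator, had 24.9, 30.8 and 32.9 FPKM in Empty and 9.52, 9.64 and 8.03 FPKM in LINC00862, a log2 fold change of -1.54 (SE 0.17, adjusted p = 5.66e-05). KIF18A, which dampens chromosome oscillations at the plate, changed by -1.85 (SE 0.21, adjusted p = 6.58e-05), and its relative KIF18B by -1.88 (SE 0.14, adjusted p = 5.08e-06), and the ratio of the pair overlapped between the groups. KIF2C (MCAK), the depolymerase that corrects faulty attachments at centromeres, had 40.3, 37.9 and 38.5 FPKM in Empty and 7.95, 9.47 and 7.44 FPKM in LINC00862, a log2 fold change of -2.06 (SE 0.14, adjusted p = 2.22e-06). The Empty libraries of KIF2C were close together, with an SD of 1.21 around 38.9 FPKM. KIF2A, a depolymerase of spindle poles that also works in interphase and in neurons, had the smallest called fall of the list, -1.29 (SE 0.16, adjusted p = 0.000131), with 9.52, 6.36 and 6.42 FPKM in Empty and 2.86, 2.93 and 2.24 FPKM in LINC00862. It overlaps DIMT1 on the opposite strand over 43742 bases. The ratio of KIF2C to KIF2A was 4.23, 5.96 and 6.01 in Empty against 2.78, 3.23 and 3.31 in LINC00862. KIF2B was at 4 counts in Empty replicate 3 and at 0 in the other 5 libraries.

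**Figure D3:**
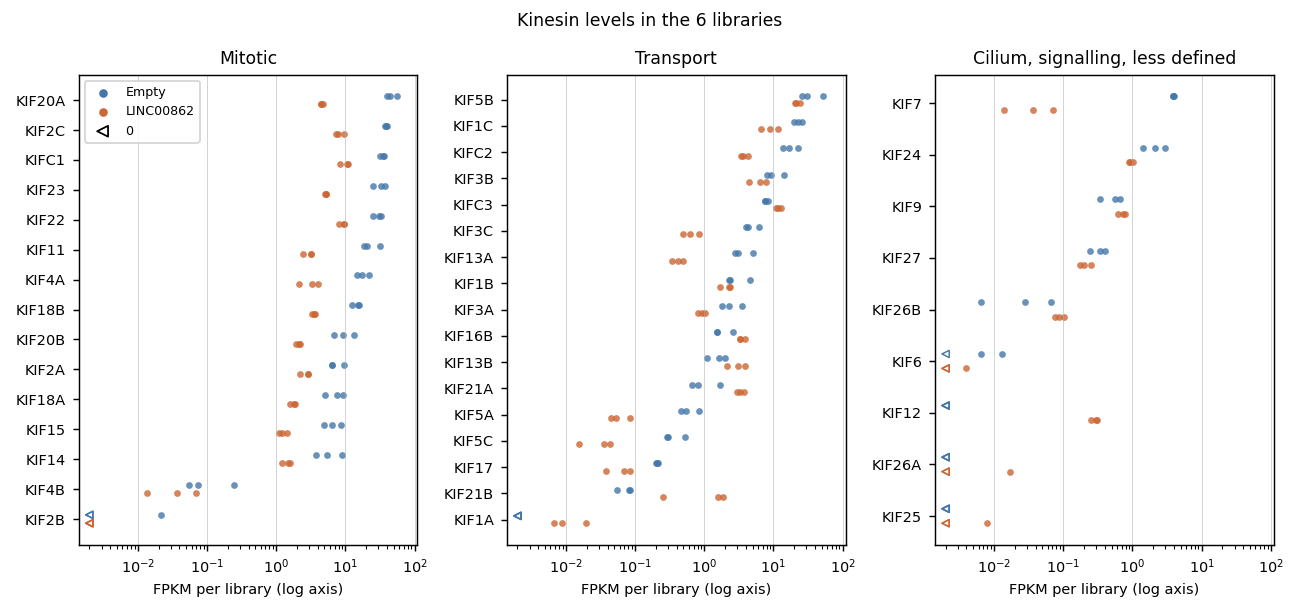
FPKM of the 41 kinesins in each library (x axis, log scale), ordered by the mean in Empty within each role, with Empty in blue, LINC00862 in orange and open triangles at the left edge for 0. Among tested genes the groups do not overlap in 13 of 14 mitotic and 15 of 16 transport kinesins. The 13 mitotic genes are lower in LINC00862, as were 36.6% of all tested genes, while the transport genes go both ways. KIF4B and the untested KIF2B overlap. The share of all tested genes that separate in either direction was not counted.

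Genes that work with the mitotic kinesins moved with them. The list of 18 partners included the kinesin CENPE under its own name. In it 18 were lower and 0 were higher, against 29.8% and 34.4% of all tested genes. The median log2 fold change was -2.23. ANLN, the anillin scaffold of the cleavage furrow, had 95.4, 64.1 and 45.2 FPKM in Empty and 3.90, 4.12 and 4.01 FPKM in LINC00862, a log2 fold change of -3.89 (SE 0.25, adjusted p = 1.72e-06). Cyclin B1 (CCNB1) changed by -2.90 (SE 0.16, adjusted p = 6.9e-07) and CENPE, the kinetochore motor, by -2.80 (SE 0.20, adjusted p = 3.09e-06). In the proliferation list 17 of 19 genes were lower, against 29.8% of all tested genes. Of the rest 1 was higher and 1 was not called, and the list median was -1.90. MYBL2, which encodes B-MYB, changed by -3.80 (SE 0.21, adjusted p = 6.89e-07), MKI67, the Ki-67 antigen, by -3.38 (SE 0.23, adjusted p = 2.59e-06), and TYMS, thymidylate synthase, by -3.20 (SE 0.16, adjusted p = 5.07e-07). Cyclin E1 (CCNE1), which acts at the entry to S phase, was the gene that rose, from 2.25, 2.67 and 2.80 FPKM in Empty to 5.04, 4.71 and 4.46 FPKM in LINC00862 (1.04 on the log2 scale). Both lists were measured in the same libraries as the kinesins and are no separate evidence on them.

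**Figure D4:**
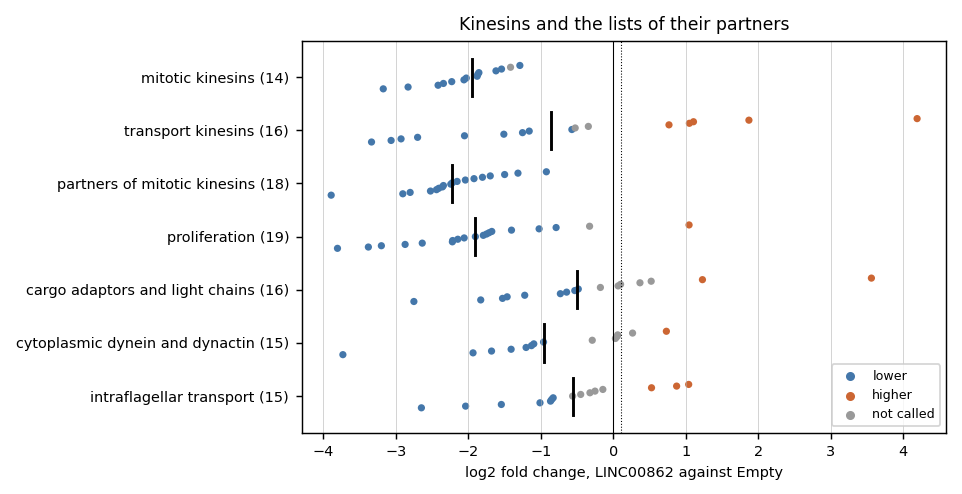
Log2 fold change (x axis), LINC00862 against Empty, of every tested gene in the 2 kinesin lists and 5 lists of related genes, with the number tested in brackets, black bars at the list medians and a dotted line at the median of all tested genes. Blue, orange and grey mark lower, higher and not called. Genes at 0 in a whole group are left out. The partners of mitotic kinesins have a median of -2.23 with 18 of 18 lower, against 29.8% of all tested genes. The cargo adaptors have a median of -0.51 with genes on both sides.

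Kinesin-1, the conventional kinesin that hauls mitochondria and vesicles outward, has a ubiquitous heavy chain, KIF5B, and 2 that are best known from neurons. KIF5B (ENSG00000170759) had 52.0, 30.1 and 25.9 FPKM in Empty and 21.1, 23.9 and 20.6 FPKM in LINC00862. The groups did not overlap, but Empty replicate 1 stood above the other 2 and the log2 fold change of -0.53 (SE 0.21, adjusted p = 0.0568) was not called. Without Empty replicate 1 the value was -0.23, without Empty replicate 3 it was -0.68 with an adjusted p of 0.018, and scaling by library size alone also called it (adjusted p = 0.033). KIF5A had 0.831, 0.544 and 0.468 FPKM in Empty and 0.0858, 0.0537 and 0.0456 FPKM in LINC00862, a log2 fold change of -3.06 (SE 0.33, adjusted p = 4.53e-05). KIF5C, the largest fall of the transport list, had 0.535, 0.297 and 0.285 FPKM in Empty and 0.0153, 0.0436 and 0.0359 FPKM in LINC00862, a log2 fold change of -3.33 (SE 0.47, adjusted p = 0.000229). Both were scarce, under 1 FPKM in every library, and fell against KIF5B, as the ratio of KIF5B to KIF5A was 62.6, 55.4 and 55.3 in Empty against 246, 445 and 450 in LINC00862. KIF5A overlaps the abundant DCTN2 by 1199 bases on the opposite strand, and DCTN2 was not called.

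The kinesin-2 motors, which drive anterograde transport in cilia and also carry cytoplasmic cargo, fell by different amounts. KIF3C had 6.11, 4.02 and 4.26 FPKM in Empty and 0.619, 0.839 and 0.494 FPKM in LINC00862, a log2 fold change of -2.70 (SE 0.22, adjusted p = 7.44e-06). KIF3A, the common partner of KIF3B and KIF3C, changed by -1.25 (SE 0.24, adjusted p = 0.00155), and KIF17, a homodimer, by -1.51 (SE 0.45, adjusted p = 0.0159). KIF17 was at 0.202 to 0.212 FPKM in Empty, and it missed the threshold without LINC00862 replicate 1 (adjusted p = 0.0647). KIF3B was close to the threshold, at -0.57 (SE 0.22, adjusted p = 0.0462), with 14.1, 8.16 and 9.34 FPKM in Empty and 6.46, 7.92 and 4.42 FPKM in LINC00862. Its call was lost without Empty replicate 1 (log2 fold change -0.37, adjusted p = 0.125), Empty replicate 3 (0.0598), LINC00862 replicate 1 (0.105) or LINC00862 replicate 3 (0.159), and under upper quartile scaling (0.159). The ratio of KIF3B to KIF3C was 2.30, 2.03 and 2.19 in Empty against 10.4, 9.43 and 8.93 in LINC00862, without overlap, while that of KIF3B to KIF3A overlapped. KIFAP3, the subunit that links kinesin-2 to cargo, was not called, at -0.18 (SE 0.16, adjusted p = 0.364). Of 15 tested genes of intraflagellar transport, the machinery that kinesin-2 moves in the cilium, 7 were lower, 3 higher and 5 not called, with a median of -0.56. Their called share of 66.7% is near the 64.2% of all tested genes. DYNC2H1, the return motor of the cilium, changed by -2.65 (SE 0.31, adjusted p = 7.63e-05), IFT52 by -2.04 (SE 0.14, adjusted p = 3.24e-06) and IFT122 by -1.54 (SE 0.16, adjusted p = 3.22e-05), while IFT20 rose by 1.04 (SE 0.18, adjusted p = 0.000768).

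Kinesin-3 motors carry vesicles over long distances, and their members went in opposite directions. KIF13A, which moves recycling endosomes and carriers to melanosomes, had 5.08, 2.75 and 3.09 FPKM in Empty and 0.418, 0.490 and 0.348 FPKM in LINC00862, a log2 fold change of -2.93 (SE 0.23, adjusted p = 5.83e-06). Its close relative KIF13B (GAKIN) had 2.00, 1.11 and 1.63 FPKM in Empty and 3.08, 3.82 and 2.15 FPKM in LINC00862, a log2 fold change of 1.11 (SE 0.23, adjusted p = 0.00252). Within each library the ratio of KIF13B to KIF13A was 0.393, 0.403 and 0.526 in Empty against 7.36, 7.80 and 6.17 in LINC00862. KIF13A was thus the more abundant of the pair in every Empty library and KIF13B in every LINC00862 library. KIF16B, which moves early endosomes, rose by 1.05 (SE 0.20, adjusted p = 0.0013) from 2.63, 1.55 and 1.54 to 3.28, 3.85 and 3.25 FPKM. KIF1C, the most abundant kinesin-3 in every library, changed by -1.16 (SE 0.18, adjusted p = 0.000455), from 25.4, 19.7 and 22.9 to 9.02, 11.5 and 6.62 FPKM. KIF1B, which moves mitochondria and synaptic vesicle precursors, was not called, at -0.34 (SE 0.24, adjusted p = 0.24), and Empty replicate 1, at 4.60 FPKM, stood above the other 5 libraries at 1.70 to 2.36 FPKM. KIF1A, the neuronal motor of synaptic vesicles, had 0 counts in each Empty library and 27, 8 and 11 in LINC00862, at least 5.28-fold higher than a floor of 3 counts a library, and was not tested.

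Of the remaining transport genes KIF21B and KIF21A, kinesin-4 motors that slow microtubule growth, were the 2 largest rises. KIF21B had 0.0550, 0.0844 and 0.0810 FPKM in Empty and 1.59, 1.89 and 0.256 FPKM in LINC00862, a log2 fold change of 4.19 (SE 0.65, adjusted p = 0.000429). LINC00862 replicate 3 lay far below the other 2, yet above every Empty library. KIF21A had 1.68, 0.805 and 0.675 FPKM in Empty and 3.32, 3.81 and 2.96 FPKM in LINC00862, a log2 fold change of 1.87 (SE 0.28, adjusted p = 0.000374). The ratio of KIF21A to KIF21B overlapped between the groups. Of the C-terminal motors, KIFC3, which anchors microtubules at adherens junctions, rose by 0.77 (SE 0.14, adjusted p = 0.0013), and KIFC2 changed by -2.05 (SE 0.24, adjusted p = 7.53e-05). KIFC3 was at 7.55 to 8.22 FPKM in Empty and 10.8 to 12.8 FPKM in LINC00862, and its ratio to KIFC1 was 0.215, 0.241 and 0.226 in Empty against 1.02, 1.18 and 1.40 in LINC00862.

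**Figure D5:**
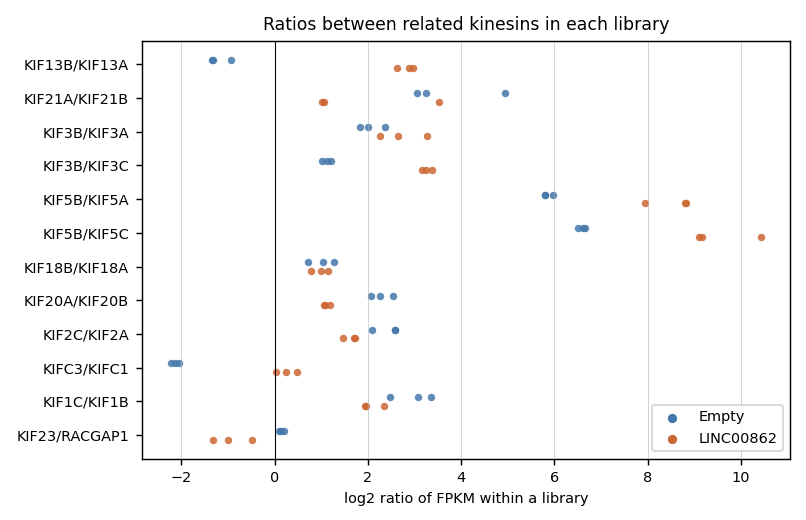
The log2 ratio of FPKM (x axis) between 2 related kinesins, or KIF23 and its partner RACGAP1, within each library, with Empty in blue and LINC00862 in orange, 3 points a group. The groups do not overlap in 9 of 12 ratios. From Empty to LINC00862, KIF13B/KIF13A and KIFC3/KIFC1 cross from below 0 to above 0, and KIF23/RACGAP1 crosses from above 0 to below 0. How often the groups separate in ratios of other gene pairs was not measured, so 9 of 12 is no trait of related kinesins.

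The adaptors that join kinesins to cargo went both ways. Of 16 adaptors and light chains 9 were lower, 2 higher and 5 not called, a called share of 68.8% that is near the 64.2% of all tested genes, and the median was -0.51 on the log2 scale. MAPK8IP1 (JIP1), a scaffold that binds kinesin light chain, changed by -2.75 (SE 0.28, adjusted p = 3.27e-05), and KIFBP, a kinesin-binding protein that blocks several motors, by -1.83 (SE 0.14, adjusted p = 5.96e-06). MAPK8IP2 (JIP2) had 0.186, 0.224 and 0.193 FPKM in Empty and 2.42, 2.27 and 1.70 FPKM in LINC00862, a log2 fold change of 3.56 (SE 0.24, adjusted p = 2.52e-06), and TRAK2, a mitochondrial adaptor, changed by 1.23 (SE 0.21, adjusted p = 0.000744).

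The last 9 kinesins had no common direction. KIF7 (ENSG00000166813), which regulates GLI factors at the tip of the cilium in Hedgehog signalling, had 3.90, 4.02 and 3.82 FPKM in Empty and 0.0368, 0.0721 and 0.0141 FPKM in LINC00862, with 1295, 1316 and 1281 counts against 15, 25 and 5. This was the largest fall of any tested kinesin, -6.34 (SE 0.42, adjusted p = 2.42e-06), and without LINC00862 replicate 2 it was -6.94. KIF7 overlaps TICRR over 19235 bases of gene span, introns included, on the opposite strand. TICRR had 2606, 2055 and 1858 counts in Empty and 619, 523 and 471 in LINC00862, more than KIF7 in all 6 libraries. KIF24, a depolymerase of the mother centriole, changed by -1.01 (SE 0.24, adjusted p = 0.00554), with 2.95, 2.10 and 1.43 FPKM in Empty and 0.922, 1.02 and 0.879 FPKM in LINC00862. KIF12 was listed at 0 in each Empty library and had 61, 63 and 65 counts in LINC00862 (0.252, 0.300 and 0.312 FPKM), at least 22.6-fold higher than the floor. KIF27, the closest relative of KIF7, was not called, at -0.46 (SE 0.32, adjusted p = 0.239), nor was KIF9 at 0.60 (SE 0.32, adjusted p = 0.13) or KIF26B at 1.57 (SE 0.63, adjusted p = 0.0533). KIF26B reached 2.39 with an adjusted p of 0.00906 without Empty replicate 1, and DESeq2 also called it (adjusted p = 0.0259). KIF6, KIF25 and KIF26A had at most 10 counts in any library.

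Within a group the same library was often the highest or lowest. By FPKM, Empty replicate 1 was the highest Empty library for 28 of 36 tested members and LINC00862 replicate 3 the lowest LINC00862 library for 24 of 36. FPKM leaves out edgeR's scaling factors, which were largest for Empty replicate 1 (1.13) and smallest for LINC00862 replicate 3 (0.891). The same counts were not taken over all tested genes, so they show no trait of the kinesins. Over the 36 tested kinesins the median coefficient of variation of FPKM was 28.3% in Empty and 12.9% in LINC00862. It was not taken over all tested genes either. Without Empty replicate 1 the mitotic median was -1.85 and the transport median -0.37, against -1.95 and -0.87 with all libraries.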

How the data were processed

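Polyadenylated RNA was captured on oligo(dT) beads, and dUTP labelling kept the strand. For each gene and library the authors deposited a raw count and an FPKM value, which scales the fragments by transcript length and mapped fragments. The submitters' processing notes list cutadapt 1.9, HISAT2 2.0.4, UMI-tools, StringTie 1.3.4d, DESeq2, edgeR and hg38. Whether reads with the same molecular identifier were collapsed before counting is not given in the sources used here, nor is the strand setting of the counting, so overlapping genes on opposite strands cannot be told apart. Every overlap given in bases is between whole gene spans, introns included.

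Counts were tested with edgeR 4.0.16 in R 4.3.3 (filterByExpr, TMM, quasi-likelihood test, Benjamini-Hochberg adjustment over 20741 genes, false discovery rate 0.05). Standard errors came from the test statistic. The 3 libraries of Empty were compared with the 3 of LINC00862. With 3 libraries against 3, exact permutation cannot give a two-sided p under 0.1. Folds against a group at 0 use a floor of 3 counts per library, and floors cover counting error only. The fits were tested on simulated data. These had few changed genes, as many higher as lower, while 64.2% of the tested genes were called here. The simulation therefore cannot test the scaling or the calls at a shift of this size.

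The members and lists were chosen with earlier results of these data known. Values in every library are given for the 5 most abundant kinesins, for up to 4 largest rises and falls in each role whose mean reached 0.1 FPKM in a group, for members at 0 in one group, and for KIF4A and KIF4B. Single-library values of further members, and RACGAP1, KIFAP3, DCTN2 and DYNC1I2 beside the 3 largest rises and falls of the other lists, were chosen after their values were seen. Some genes of the lists are not reported here by name. KIF19 and the other assays of the study were not analysed here. Alternatives were DESeq2 1.42.0, upper quartile or library size scaling, a replicate block, every gene with at least 1 count, limma-trend (limma 3.58.1) on log2 FPKM with a pseudocount of 1 or 0.1, a threshold of 0.01 on the adjusted p, testing for a fold change above 2, leaving out each library, and other role assignments. Python 3.11.15 was used for tables and figures.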

Additional observations from a re-analysis of the deposited data

How the results depend on the processing

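The number of mitotic kinesins called lower was 13 under every alternative, with or without each library, and 12 with KIF2A moved out, with 0 called higher, and their median log2 fold change lay between -2.14 and -1.74, and between -2.06 and -1.85 without one library. Scaling shifted the median of all genes from 0.11 (TMM) to 0.16 (DESeq2), 0.32 (upper quartile) and -0.05 (library size). A test against a fold change of 2 left 3 kinesins higher, 2 transport kinesins higher and 5 lower, and 8010 genes called in place of 13321. With KIF21A, KIF21B and KIFC2 moved out of the transport list, 3 were higher. The transport median ran from -1.16 to -0.50 under the other alternatives and from -0.87 to -0.37 without one library, smallest in size without Empty replicate 1. With KIF2A moved out, the mitotic share was 67.6% in Empty and 42.2% in LINC00862, and without KIF5B 76.3% and 53.7%. KIF1B ran from -0.49 to 0.00029 without one library and changed sign without Empty replicate 1. The cause of these shifts was not tested, apart from the lists and the threshold that the alternatives themselves changed. Among single genes, 25 of 36 kept their call and direction in 15 alternative fits. Libraries with the same replicate number did not deviate together (correlations of the deviations -0.11, -0.14 and -0.08), and with a replicate block 12098 genes and 22 kinesins lower and 7 higher were called, KIF3B and KIF17 losing and KIF26B gaining a call.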

Other observations

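Cytoplasmic dynein and dynactin, which move cargo in the opposite direction to most kinesins, were also measured. Of 15 tested subunits 8 were lower, 2 higher and 5 not called, with a median log2 fold change of -0.96. The called share of 66.7% is near the 64.2% of all tested genes, and DYNC1I1, 1 of the 2 higher, passed the filter on low counts only through the LINC00862 libraries. DYNLT1, a dynein light chain, had 25.3, 34.4 and 34.1 FPKM in Empty and 2.26, 2.11 and 1.92 FPKM in LINC00862, a log2 fold change of -3.73 (SE 0.20, adjusted p = 7.15e-07). The dynactin subunits DCTN3 and DCTN1 changed by -1.93 (SE 0.23, adjusted p = 9.6e-05) and -1.68 (SE 0.17, adjusted p = 3.29e-05), while DCTN5 rose by 0.73 (SE 0.22, adjusted p = 0.0179). DYNC1I1, an intermediate chain best known from neurons, was listed at 0 in every Empty library and reached 0.339, 0.237 and 0.162 FPKM in LINC00862, at least 27.8-fold higher than a floor of 3 counts a library, while its relative DYNC1I2 changed by -1.20 (SE 0.13, adjusted p = 5.59e-05).

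Among the kinesins on chromosome 1, KIF14 and KIF21B lie nearest to LINC00862, which the files place at chr1:200253419-200374688 (hg38). KIF14 is 176809 bases away with 2 genes between and fell, and KIF21B is 594702 bases away with 8 genes between and rose. The next kinesin of that chromosome, KIF26B, is 44780297 bases away.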
